A study of Homo sapiens with 4 samples.

Results

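Of 87966 merged regions of open chromatin in H1, an established line of human embryonic stem cells, 7412 had peaks in the lists for Activin A, for both ligands and for control, and no peak in the Wnt3a list. These regions are called Wnt3a-missing below. They were chosen from the presence and absence of peaks after peaks of the 4 lists that overlapped or were book-ended had been merged, so their absence after Wnt3a is a description and not a finding. The assay was ATAC-seq, in which a transposase cuts open DNA and tags it for sequencing. The treated groups received Wnt3a (25 ng/ml), Activin A (25 ng/ml) or the pair of ligands (25 ng/ml each) and were harvested after 6 h, and a control group was grown in parallel without either ligand. Treatment took place in a B27 medium, whereas the control medium contained N2 and B27 with basic fibroblast growth factor at 20 ng/ml. The 3 treated groups therefore share a medium that the control does not. Each group had 1 library, so no test between groups was possible, no p-value is given, and the intervals cover counting error only.

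Wnt3a is a secreted ligand that stabilises beta-catenin, which then acts with TCF and LEF proteins at promoters and enhancers. Activin A belongs to the TGF-beta ligands, and its receptors phosphorylate SMAD2 and SMAD3. Human embryonic stem cells need Activin and fibroblast growth factor signals to stay pluripotent, and Activin together with Wnt drives them towards mesendoderm, the precursor of mesoderm and endoderm. An ATAC-seq peak marks DNA that the transposase could reach, most often an active promoter, an enhancer or a site bound by an architectural factor. hg19 gene positions and sequence were not used here, so the regions are named by coordinate and cytogenetic band and no gene is assigned to them.

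The Wnt3a list was the shortest of the series. It held 21078 peaks, against 75585 after Activin A, 58382 after both ligands and 26223 in control, and its lowest score was 51.1, against 50.05, 50.03 and 50.03 in those lists. Absence from it was common everywhere. A Wnt3a peak was missing from 74.6% of the 73116 Activin A regions, from 67.9% of the 56055 regions found with both ligands and from 46.5% of the 24769 control regions. Of the 20428 regions present in all 3 other lists, the 7412 without a Wnt3a peak made up 36.3% (95% exact interval 35.6 to 36.9), and the other 13016 had a peak in all 4. That share was 18.3% when each list was reduced to the length of the Wnt3a list, and 18.5% when the other 3 lists had to reach their median score. Read numbers are not stated in any source used here. The ligand, the length of its list and the library cannot be told apart.

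Regions missing from a single other list were far fewer for Activin A, with 56, and for both ligands, with 148, and numbered 4613 for control. When each list was reduced to its 21078 best-scoring peaks, the order narrowed to 2293 Wnt3a-missing regions, 589 missing only after Activin A, 631 missing only with both ligands and 2091 missing only from control. At equal length the Wnt3a and control counts were thus close to each other, and both stood above the other counts.

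**Figure D1:**
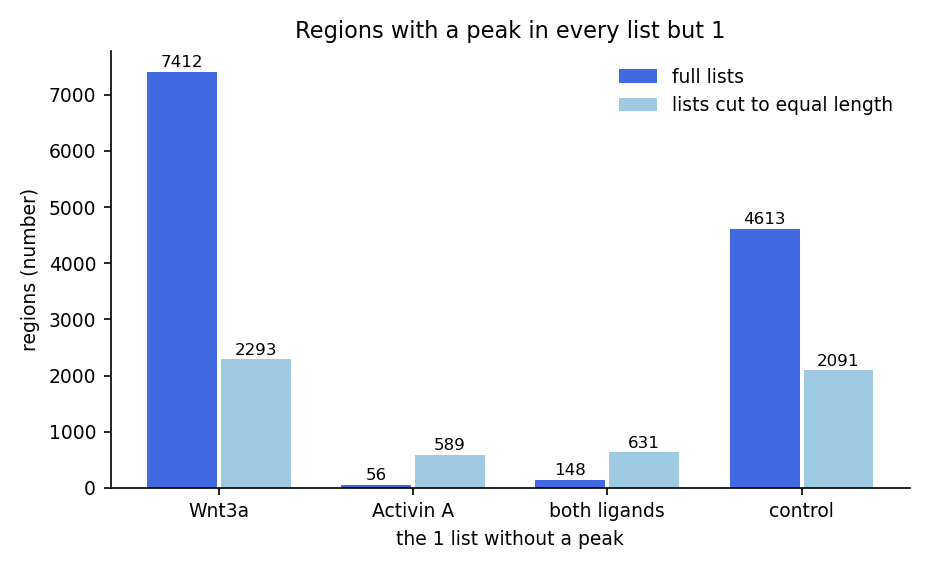
Number of regions (vertical axis) with a peak in every list but 1, by the list without a peak (horizontal axis), for the full lists in dark bars and for lists reduced to 21078 peaks each in light bars. The Wnt3a bars stand at 7412 and 2293 regions and the control bars at 4613 and 2091.

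The Wnt3a-missing regions were single, well-aligned elements in the lists that held them. Exactly 1 peak in each of the 3 lists was found in 6627 of 7412 (89.4%), and 7313 (98.7%, 98.4 to 98.9) had at least 1 base covered by a peak of all 3. The same was true of 12993 of the 13016 regions present in all 4 lists (99.8%). The merged Wnt3a-missing regions spanned a median of 1050 bases (quartiles 873 and 1366), against 1463 (1146 and 1886) for regions in all 4 lists, a width that an additional list can extend. Regions missing only from control spanned a median of 1000 bases (832 and 1303).

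In each of the 3 lists the Wnt3a-missing regions scored lower than the regions in all 4 lists. The score of a peak is the authors' own value from the peak caller. Raw scores are printed here, but lists are compared by rank within a list. In the Activin A list the Wnt3a-missing regions had a median score of 195 (quartiles 128 and 287), which is percentile 72.0 of that list, against 444 and percentile 90.3 for regions in all 4 lists. In the list of both ligands their median was 128 (84.6 and 188), percentile 63.6, against 294 and percentile 87.4. In control their median was 68.1 (57.6 and 85.8), percentile 41.4, against 106 and percentile 71.2. The 4613 regions missing only from control had similar medians, at percentile 70.5 after Activin A and 62.4 with both ligands. Lower scores than in regions of all 4 lists were therefore not particular to the Wnt3a-missing regions. Of the Wnt3a-missing regions, 3202 (43.2%) were in the top 25% of the Activin A list, against 86.2% of the regions in all 4 lists. In the top 25% of the list of both ligands were 2109 (28.5%), against 77.6%, and in that of the control list 606 (8.18%), against 44.8%. In the top 25% of none were 3662 (49.4%, 48.3 to 50.6), against 9.38% of the regions in all 4 lists.

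The share of regions without a Wnt3a peak was lower at higher scores in each other list, apart from the lowest pair of control deciles. Over deciles of the Activin A score it was 80.1% (78.3 to 81.8) in the lowest, 40.9% in the fifth and 0.538% (0.269 to 0.961) in the highest. Over deciles of the score with both ligands it was 79.98%, 38.7% and 0.783% in the same deciles. The control score separated the regions less at its low end, with 59.5% (57.4 to 61.7) in the lowest decile, 61.3% (59.1 to 63.4) in the second, 44.1% in the fifth and 1.27% (0.834 to 1.86) in the highest. Where a Wnt3a peak was present in the lowest control decile, its median score was 79.1, under the median of 85.0 of the whole Wnt3a list, and in the highest control decile it was 200.3.

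**Figure D2:**
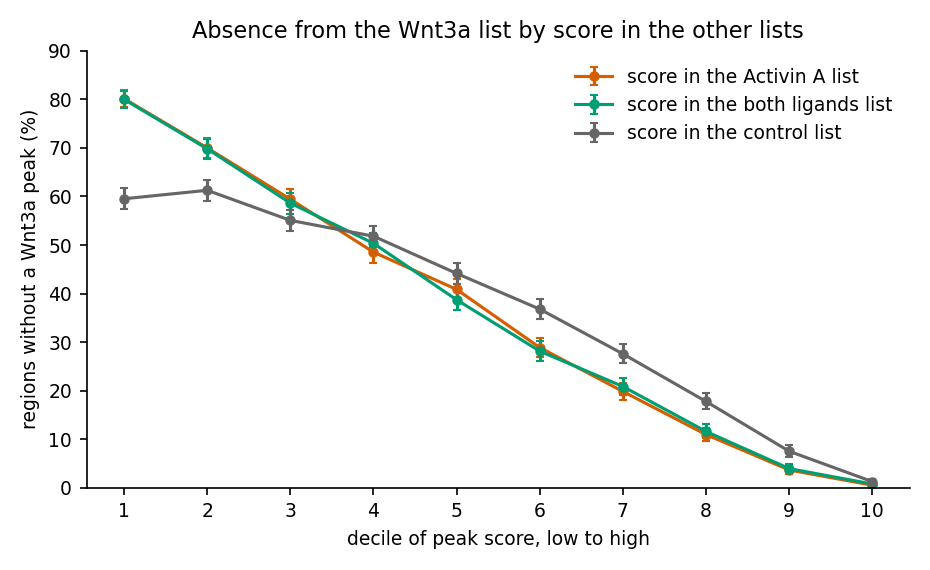
Percentage of the 20428 regions in the Activin A, both-ligand and control lists that had no Wnt3a peak (vertical axis), by decile of their score in each of those lists (horizontal axis). Bars are exact 95% intervals, and all 3 lines fall to 1.27% or below in the highest decile.

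At equal control score the Wnt3a-missing regions also ranked lower in both lists of cells given Activin A. Ranks were taken among the 20428 shared regions, so that lists of different length could be set side by side. In the lowest control decile the median Activin A rank was percentile 16.9 for the 1228 Wnt3a-missing regions and 39.3 for the 835 regions in all 4 lists. In the fifth decile the medians were 27.7 and 50.4, and in the highest 68.2 for 26 Wnt3a-missing regions and 93.3 for 2014 regions in all 4 lists. The ranks with both ligands gave nearly the same medians, 18.4 against 40.0 in the lowest decile and 74.7 against 93.4 in the highest. The quartile ranges of the pair of sets overlapped in the lowest decile and just failed to meet in the highest. Regions in all 4 lists also had to pass the caller's threshold in the Wnt3a list, which can select stronger regions within each control decile. The part of that in these ranks was not tested, and regions missing only from control were not compared in this way.

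**Figure D3:**
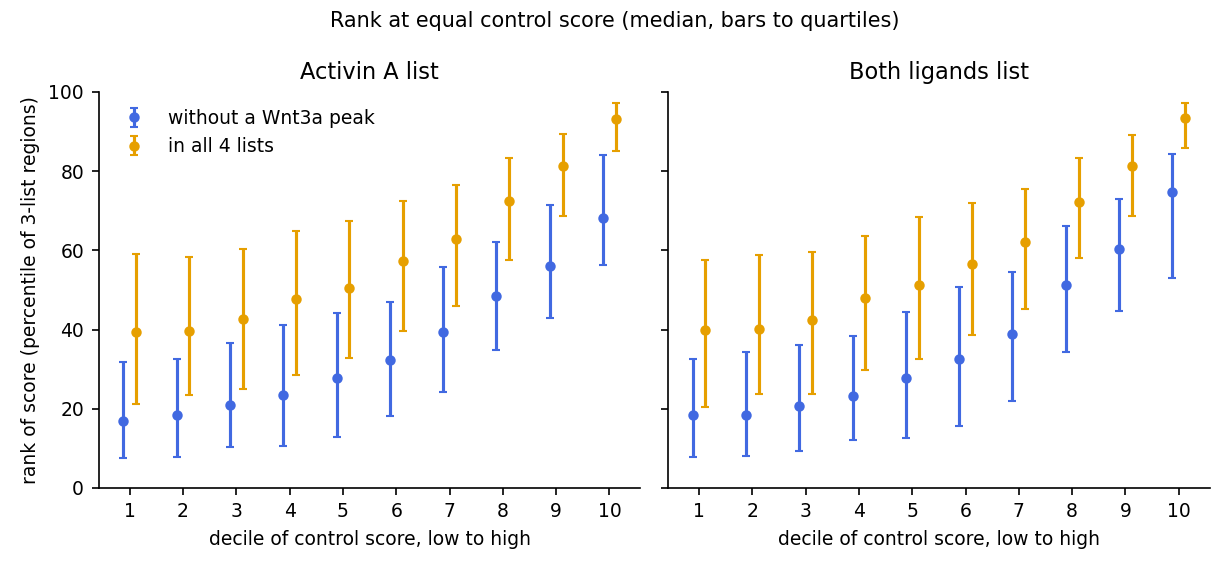
Median rank of the score (vertical axis, percentile among 20428 regions; bars reach the quartiles) in the Activin A list (left) and in the list of both ligands (right), by decile of control score (horizontal axis). Wnt3a-missing regions (blue) have the lower median in every decile, for example 16.9 against 39.3 in the Activin A list in the lowest decile.

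Peak width moved with rank. In the lowest control decile the control peaks had median widths of 577 bases in Wnt3a-missing regions and 576 bases in regions of all 4 lists, whereas their Activin A peaks were 815 and 1014 bases wide and their peaks with both ligands 796 and 992 bases. In the fifth control decile the Activin A peaks were 848 and 1035 bases wide. The control peaks were 680 and 718.5 bases wide in the fifth control decile, 1049.5 and 1044 in the ninth, and 1161 and 1247.5 in the highest. The sets were binned by control score, which can bring their control widths together, and the part of that was not tested. The Activin A scores were not matched, with medians of 157 and 266 in the lowest control decile. Whether the Activin A widths differed beyond these scores was not tested.

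With both ligands and with Activin A alone the Wnt3a-missing regions took much the same ranks as a group. Their rank was lower with both ligands than with Activin A alone in 3697 of 7412 (49.9%, 48.7 to 51.0), against 6553 of 13016 (50.3%, 49.5 to 51.2) of the regions in all 4 lists. The median difference in rank, both ligands minus Activin A, was 0.04 percentile points (quartiles -10.9 and 11.3). Against control, 4360 Wnt3a-missing regions (58.8%, 57.7 to 59.9) ranked lower with both ligands and 4376 (59.0%, 57.9 to 60.2) lower with Activin A. The corresponding shares of the regions in all 4 lists were 47.0% and 46.4%. The 3 rankings are of the same regions, so a set with fewer high ranks in 1 list has room for such shifts, and the part of that in these shares was not tested. Over the 7412 regions the scores with Activin A and with both ligands had a Spearman correlation of 0.59. The control scores correlated at 0.34 with those after Activin A and at 0.33 with those after both. Over the 13016 regions in all 4 lists, which span a wider range of ranks, the corresponding values were 0.81, 0.66 and 0.67. These are descriptions of regions that share libraries.

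The highest-scoring Wnt3a-missing regions were strong in most of the other lists. The rule took the 10 highest scores in control, the 5 highest after Activin A and the 5 highest with both ligands, which gave 16 regions, 13 of them in the top 25% of all 3 lists. The region chr7:75946709-75948577 in 7q11.23 was among the highest by all 3 scores, with 983 after Activin A, 632 with both ligands and 229 in control. The region chr1:44495037-44498168 in 1p34.1 scored 973 after Activin A, 390 with both ligands and 285 in control. The region chr7:28994849-28998777 in 7p14.3 had 977, 400.3 and 248 in the same lists, and its Activin A peak of 3726 bases was the widest of the 16 in that list. These 3 regions were high wherever they had a peak, which comes in part from their choice by the same scores. Each belongs to the 15 Wnt3a-missing regions in the top 10% of all 3 lists.

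Other named regions entered by the score of a single list. The highest Activin A score, 1044, was at chr3:129024229-129025282 in 3q21.3, which scored 392 with both ligands and 105 in control, the last at percentile 70.4 of its list. The highest score with both ligands, 704, was at chr1:16160681-16163020 in 1p36.21, where Activin A alone gave 426 and control 87.1, the last at percentile 60.2. Next came chr10:95039821-95041647 in 10q23.33, with 491 after Activin A, 701 with both ligands and 137 in control. In the region chr22:25506363-25508088 of 22q11.23 the score was 805 after Activin A, 241 with both ligands and 244 in control. As percentiles of their lists these last values are 97.2, 83.1 and 95.6, and those of the region in 10q23.33 are 91.9, 98.2 and 81.7, so both were in the top 25% of all 3 lists.

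The highest control score stood apart from the rest of the named regions. It was 293 at chr10:135500248-135501243 in 10q26.3, at the end of the long arm, where Activin A gave 102 and both ligands 225. The Activin A score was at percentile 47.1 of its list, the lowest of the 16 in that list. The nearest Wnt3a peak was 292335 bases away, the farthest of the 16. For the 16 regions together the nearest Wnt3a peak lay at a median of 10496 bases, and the closest was 832 bases from chr22:38597217-38599941 in 22q13.1, which scored 378 after Activin A, 647 with both ligands and 146 in control.

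**Figure D4:**
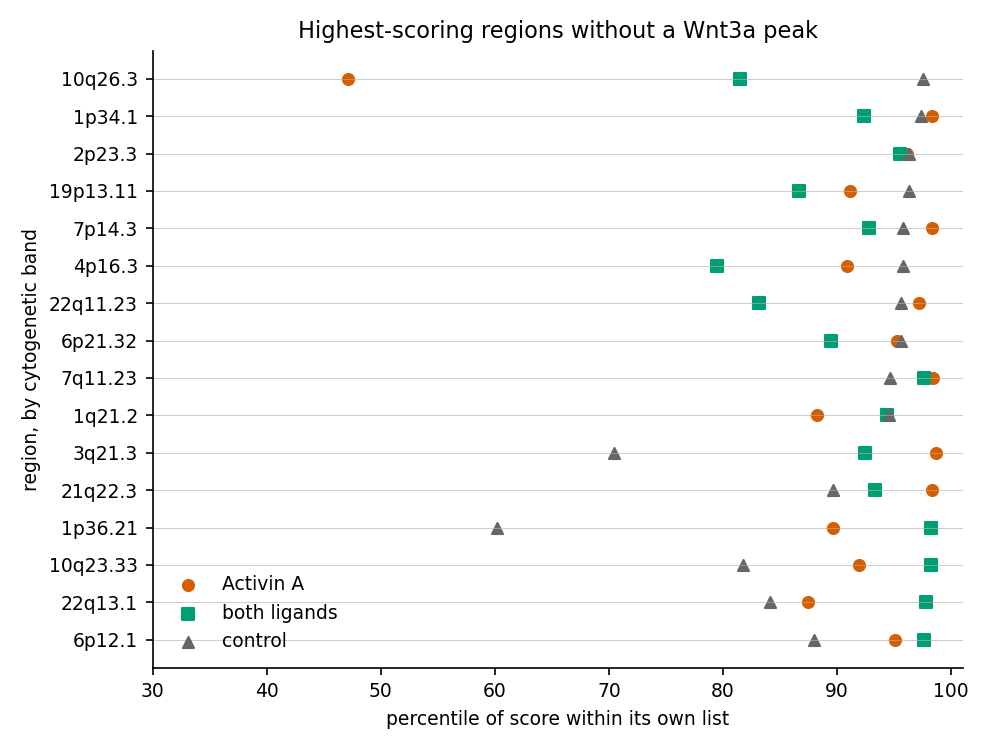
Percentile of the score within its own list (horizontal axis) in the Activin A (circles), both-ligand (squares) and control (triangles) lists for the 16 named Wnt3a-missing regions, each labelled by cytogenetic band (vertical axis). Most points lie above percentile 80, and the Activin A point of 10q26.3 lies at 47.1.

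Strong regions were seldom missing. Of 5850 regions in the top 25% of all 3 other lists, 392 (6.70%, 6.07 to 7.37) had no Wnt3a peak, and of 2207 in the top 10% of all 3, 15 (0.680%, 0.381 to 1.12) had none. Besides those named above, the 15 included chr12:62995756-62997909 in 12q14.1, with 688 after Activin A, 597 with both ligands and 209 in control, and chr19:52429757-52431210 in 19q13.41, with 468, 393 and 189 in those lists. The nearest Wnt3a peaks to this pair were 27423 and 58457 bases away. Both were outside the rule for named regions and were chosen after their values were seen.

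Most Wnt3a-missing regions had no Wnt3a peak close by. The distance to the nearest one had a median of 24804 bases (quartiles 7769 and 65294), and 382 regions (5.15%, 4.66 to 5.68) had one within 1 kb and 2215 (29.9%, 28.8 to 30.9) within 10 kb. For the 4613 regions missing only from control, the nearest control peak, from a longer list, lay at a median of 21690 bases, with 6.35% within 1 kb and 33.8% within 10 kb. At the edge of the rule, chr12:112545567-112547070 in 12q24.13 counted as missing with a Wnt3a peak 2 bases away, and scored 302 after Activin A, 168 with both ligands and 76.4 in control. Just outside the rule, chr12:53374359-53375390 in 12q13.13 had the lowest Wnt3a score of the regions in all 4 lists, 51.1, with 185 after Activin A, 88.7 with both ligands and 74.4 in control. The scores of this pair of regions were of the same order in the lists that hold both.

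Neighbours along a chromosome were compared by whether the preceding shared region was Wnt3a-missing. When the preceding shared region lay within 5 kb and was itself Wnt3a-missing, the next was Wnt3a-missing in 343 of 890 cases (38.5%, 35.3 to 41.8), and when the preceding one was in all 4 lists, in 486 of 1345 (36.1%, 33.6 to 38.8). At gaps of 5 to 20 kb the shares were 36.95% (34.4 to 39.6) and 35.6% (33.7 to 37.5), and at gaps of 20 to 100 kb they were 37.7% (35.9 to 39.5) and 34.8% (33.5 to 36.1). The share was the higher one after a Wnt3a-missing region at each gap, and the difference was not tested. The share also differed somewhat with local peak density. It was 32.8% (31.7 to 34.0) where at most 6 Activin A peaks lay within 100 kb of the region's centre and 39.1% (37.7 to 40.5) where 11 to 17 did, against 35.0% and 37.3% expected from the control scores alone. From the mean rank over the 3 lists 34.4% and 37.9% were expected, and the latter lies within its interval. With 7 to 10 peaks the share was 36.5%, and at the highest densities, 18 to 54 peaks, it was 37.6% (36.2 to 39.0). Within 5 Mb of a chromosome end 39.97% (37.95 to 42.0) were Wnt3a-missing, and farther than 20 Mb from any end 34.9% (34.1 to 35.7), against 39.0% and 35.6% expected.

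Position was also compared by chromosome and band, with the number expected when each region takes the share of its control-score decile. Chromosome 22 had the highest share of any chromosome, 195 of 440 regions (44.3%, 39.6 to 49.1), which was 1.17 times the expected number. Chromosome 19 had the lowest autosomal share, 370 of 1226 (30.2%, 27.6 to 32.8), and its ratio to the expected number was 0.923 with control deciles and 1.01 with the mean rank over the 3 lists, so its position below or above expectation depended on the scores used. Of the Y chromosome's 19 regions, 5 were Wnt3a-missing.

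On the X chromosome 86 of 234 regions were Wnt3a-missing (36.8%, 30.6 to 43.3), against 36.3% on autosomes. From the scores of its regions 43.1% were expected with control deciles and 43.0% with the mean rank, and both lie within the interval. With the best 50% of each list the X share was 44.1% (34.3 to 54.3), an interval that contains the 38.2% on autosomes. At equal list length it was 19.0% (12.6 to 27.0), against 18.3% on autosomes. The same 86 regions can be set beside those missing only from control, as a description that uses the peak calls of the rule itself. Of the regions with peaks in both Activin A-containing lists and in exactly 1 of the Wnt3a and control lists, 86 of 189 on the X chromosome (45.5%, 38.3 to 52.9) lacked the Wnt3a peak and the others the control peak, against 7321 of 11828 (61.9%, 61.0 to 62.8) on autosomes. Single autosomes ran between 56.7% on chromosome 6 and 69.4% on chromosome 22. Among the same regions the share lacking the Wnt3a peak changed little with the Activin A score, between 58.5% and 65.7% over its deciles.

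Among the 102 cytogenetic bands with at least 50 shared regions, the highest shares of Wnt3a-missing regions were in 22q13.1 (47 of 83, 56.6%, 45.3 to 67.5), 21q22.3 (51.6%), 1p36.13 (50.7%), 22q12.3 (50.0%) and 18q21.1 (48.1%). In 22q13.1 the observed number was 1.52 times that expected from control deciles and 1.36 times that expected from the mean rank, and its interval lay above both expected shares of 37.2% and 41.6%. The lowest shares were in 19q13.43 (12 of 66, 18.2%, 9.76 to 29.6), a band rich in zinc finger genes, in 1q21.3 (20.7%), which holds the epidermal differentiation genes, in 9p13.3 (21.5%), in 6p21.33 (21.8%), which holds part of the major histocompatibility complex, and in 2q37.1 (23.5%). In 19q13.43 the ratio to the expected number was 0.56 with control deciles and 0.805 with the mean rank, and its interval lay below the expected share of 32.5% from control deciles but contained the 22.6% from the mean rank. In 2q37.1 the ratios were 0.623 and 0.661, and its interval (12.8 to 37.5) contained only the 35.6% expected from the mean rank. The intervals of 1q21.3 (12.7 to 30.7), 9p13.3 (12.3 to 33.5) and 6p21.33 (11.8 to 35.0) contained both of their expected shares. So did those of 21q22.3, 22q12.3 and 18q21.1, while that of 1p36.13 contained only its expected share from the mean rank. Bands were ranked over 102 shares with no test, and an extreme share is expected in some of them.

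**Figure D5:**
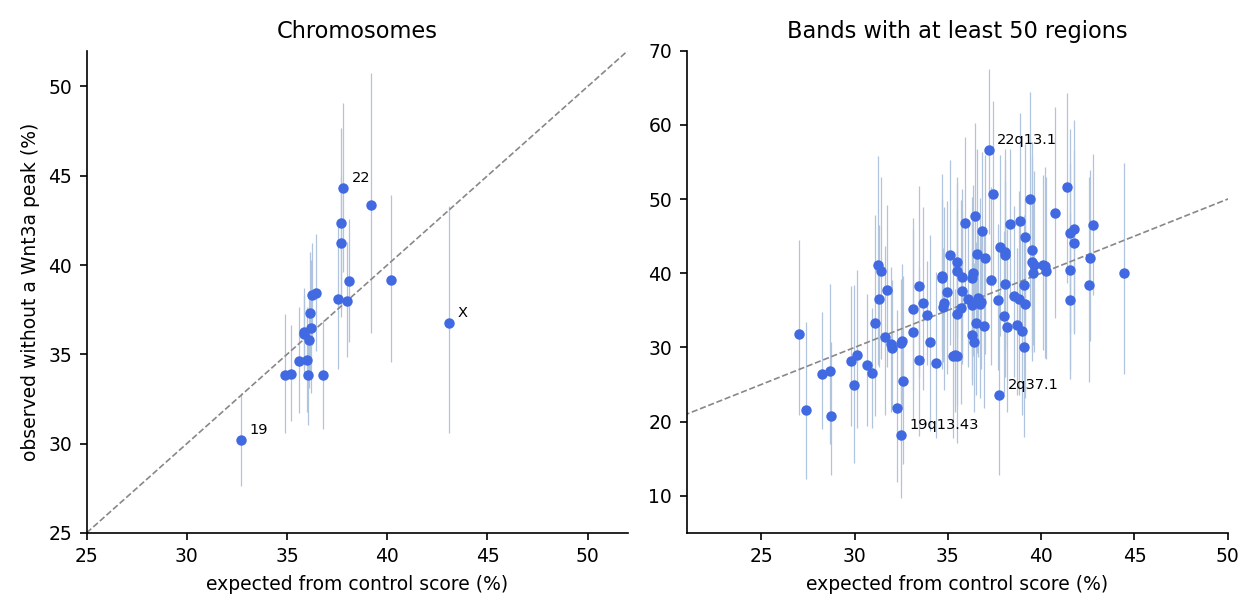
Observed percentage of shared regions without a Wnt3a peak (vertical axis, exact 95% intervals) against the percentage expected from their control-score deciles (horizontal axis), for chromosomes without Y (left) and for bands with at least 50 regions (right). The dashed line marks equality; 22q13.1 lies above it at 56.6%, and 19q13.43 (18.2%) and the X chromosome (36.8%) lie below, X with an interval that reaches the line.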

How the data were processed

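Each library was represented by 1 peak list of chromosome, start, end, peak name and score. CASAVA 1.8, Bowtie2 2.2.2 and the hg19 build are named in the submitters' processing notes. The score is the authors' deposited value. Peak names in the files begin with MACS, from which the caller is inferred; no label names it, and no source used here states what the score measures, the caller's version and settings, the read shift, duplicate removal or a background library; the depth of each library is therefore unknown. Deeper libraries give higher scores and more weak peaks, so lists were compared by ranks within a list. Raw scores are also printed for single regions, and across lists they carry the differences between the lists.

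Peaks of the 4 lists that overlapped or were book-ended were merged, and a region took the best score of each list in it. Shares carry exact Clopper-Pearson 95% intervals for counting error. Expected numbers gave each region the share of its control-score decile or, in an alternative added after the data were seen, of 20 bins of its mean rank. Bands were those of hg19 in circlize 0.4.16. Python 3.11.15, numpy 2.4.6, pandas 2.3.3, scipy 1.17.1 and matplotlib 3.10.9 were used. The merging was tested by removing Wnt3a peaks from known regions of the real lists, and the expected numbers were tested with simulated absences.

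Named regions were those with the 10 highest control, 5 highest Activin A and 5 highest both-ligand scores, and the 5 bands with the highest and the 5 with the lowest share. The regions, lists and measures were chosen with earlier results of these data known. Coordinates are those of the merged regions, on hg19, counted from 1. Promoters, gene lists, markers, sequence composition and motifs need hg19 annotation or sequence and were not analysed here.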

Additional observations from a re-analysis of the deposited data

How the results depend on the processing

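With 1 library per group, whether a weak peak passes the caller's threshold can depend on depth, which is unknown. Counts were taken as moved when they changed by more than 1.5 times, and shares and medians when they left their 95% interval; of 79 alternative values 40 stayed and 39 moved. The number of Wnt3a-missing regions stayed within 1.5 times of 7412 with other merging, widths, distances and chromosomes, without centromeric, variable and stalk bands, and when all 3 lists had to cover a common base; the last pair of alternatives was chosen after seeing the data. It was 2293 at equal list length, 4329 with the best 50% of each list and 2092 when the other 3 lists had to reach their median score; fewer peaks enter each of these by construction.

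Their share of shared regions was 18.3%, 38.2% and 18.5% in those settings, 37.1% with 500 bases around each centre, 35.4% with peaks within 500 bases merged, and 34.4% and 25.4% when no Wnt3a peak was allowed within 1 kb and 10 kb. Among regions in the top 25% of the uncut control list it was 7.87% at equal length, 23.0% in the best 50% and 6.57% with the 10 kb distance. In the best 50% the Wnt3a list was cut as well.

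At equal length and in the best 50%, regions missing only after Activin A numbered 589 and 20, with both ligands 631 and 69, and from control 2091 and 2437; with 500-base peaks the first pair of counts were 266 and 304. Median percentiles, still counted on the full lists, were 83.95 and 84.7 after Activin A, 79.4 and 80.6 with both ligands and 58.6 and 68.9 in control. The cuts removed the lowest percentiles of that scale, so these medians are not ranks within the reduced lists. The X chromosome's share was 19.0% and 44.1%. The autosomal share was 18.3% and 38.2%, 37.1% with 500-base peaks and 35.4% with wider merging. A Wnt3a peak within 1 kb was found for 5.92% with 500-base peaks, 1.25% with wider merging and 2.66% in the best 50%, and within 10 kb for 31.1%, 26.3% and 18.0%. For these settings the cause beyond their construction was not tested.

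The analyses of promoters, gene starts and sequence composition and their alternatives were not run. No paired analysis was possible because every group consisted of a single library.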
